A study of Mus musculus with 13 samples.

Results

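Of the 1593 genes listed as changed by any of 3 small-molecule inhibitors in cultured mouse astrocytes, 211 were listed both for HLM006474 and for Ro5-3335, and the effects of these 2 compounds are compared here gene by gene. A gene was taken when the authors' deposited tables of both compounds held it, matched on the row number that the tables give each gene. The 211 genes were thus selected on their adjusted p values and fold changes in both comparisons. HLM006474 inhibits the E2F family of transcription factors, and Ro5-3335 inhibits the transcription factor RUNX1 and its partner CBFB. The cells were primary astrocytes taken from optic nerves and retinas of C57BL/6 wild-type pups at postnatal day 1 to 3, grown in medium with serum. There were 3 samples given HLM006474, 3 given Ro5-3335 and 4 given vehicle, all for 24 h, in a series of 13 samples that also held 3 given SB431542, a blocker of type I TGF-beta and activin receptors. Doses are not stated in the labels, nor is it said whether replicate samples were separate cultures or mice.

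E2F proteins bind the promoters of genes for DNA replication and cell division, and they switch these genes on as a cell passes from the first gap phase into DNA synthesis. Proteins of the retinoblastoma family hold E2F back until cyclin-dependent kinases release it, and E2F7 and E2F8 are repressors that close the wave. RUNX proteins bind DNA together with CBFB and are best known for blood and bone, and RUNX1 also acts in glia. Immediate early genes code for transcription factors made within minutes to hours of a stimulus, many of them through serum response factor at its binding site, the CArG box. The same factor drives smooth muscle type contractile genes, which cultured astrocytes can express.

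The values below are log2 fold changes against vehicle with their standard errors, both from the authors' deposited tables. The tables hold no value per sample, so no replicate spread, overlap of samples or library depth can be given. The HLM006474 table listed 856 of 15169 genes tested, or 5.64%, and that of Ro5-3335 listed 397 of 13561, or 2.93%. A gene was listed when its adjusted p was under 0.05 and it changed by about 1.5-fold or more. The 211 genes were 24.6% of the HLM006474 table and 53.1% of the Ro5-3335 table. Because these limits chose the genes, the fold changes are given as a description with no test. The mean normalised count of the 211 genes ran from 21.6 to 37998 with a median of 205. The mean count was 18965 for Fabp7 and 23893 for Kcnj10, both genes of astrocytes, and Lyz2, a gene of macrophages and microglia, had 24249, in the authors' deposited tables. In such mixed RNA, fewer cells of a type cannot be told apart from less RNA per cell. Of 14 markers of microglia and macrophages none was listed for both compounds, which is near the share of 211 among the 15169 genes tested for HLM006474. Tmem119 at -1.08 ± 0.070, Aif1 at -0.89 ± 0.15, P2ry12 at -0.82 ± 0.17 and Lyz2 at 1.08 ± 0.18 were listed for HLM006474 alone in the authors' deposited tables. Here and below, alone refers to these 2 compounds and leaves SB431542 aside.

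Under HLM006474, 176 of the 211 genes were lower and 35 higher, and under Ro5-3335, 179 were lower and 32 higher, in the authors' deposited tables. Both comparisons used the same 4 vehicle samples, whose chance deviations enter both fold changes with the same sign, so nothing is read from their shared direction. In the difference between the compounds, HLM006474 minus Ro5-3335, the vehicle samples cancel. The difference is given with a 95% interval from the root of the summed squared errors, which is wider than it need be because it ignores that cancellation. Over all 211 genes the median difference was -0.07, and the interval excluded 0 for 35 genes, or 16.6%. The intervals were not adjusted for the number of genes, so some would exclude 0 without any difference. Genes past the limits for 1 compound only are left out, so larger differences may be missing. Among the 176 genes lower under both compounds the median fold change was -0.88 for HLM006474 and -0.77 for Ro5-3335 in the authors' deposited tables. The fall was larger under HLM006474 for 115 of these genes and larger under Ro5-3335 for 61. Among the 32 genes higher under both, 21 rose more under HLM006474 and 11 more under Ro5-3335, and 3 genes went in opposite directions.

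**Figure D1:**
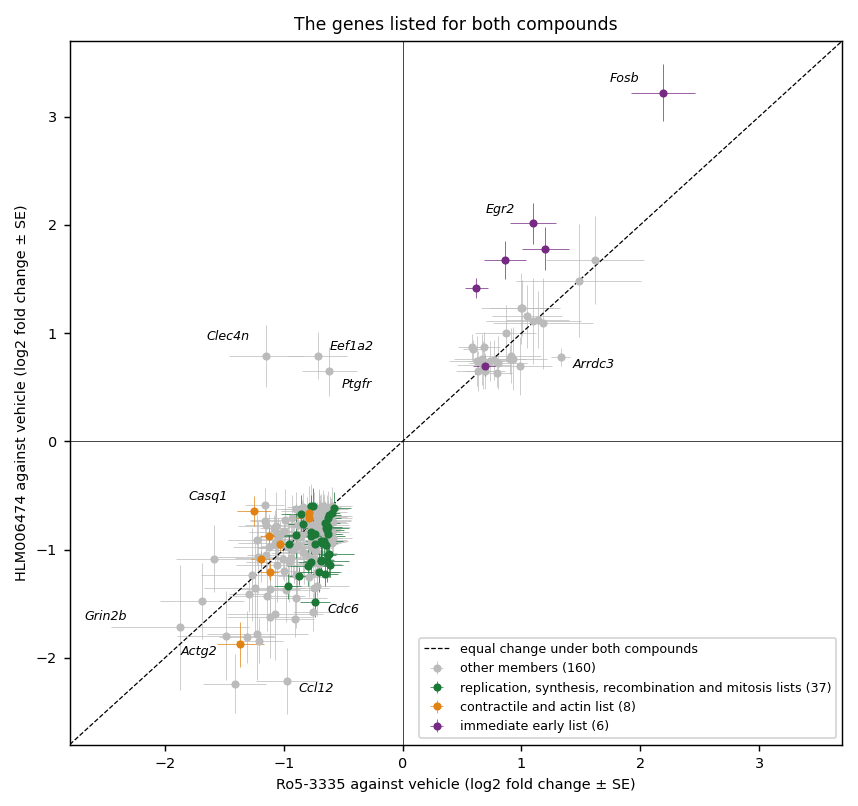
Log2 fold change against vehicle under Ro5-3335 (horizontal) and HLM006474 (vertical) for the 211 genes listed for both compounds, with bars of 1 standard error and a dashed line where the compounds are equal. The replication and division genes lie mostly below the line, the contractile genes lie about it, and 5 of the 6 immediate early genes lie clearly above it.

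Genes of DNA replication and division were lower under both compounds and, for most of the shared licensing and synthesis genes, more so under HLM006474. Of 114 genes on the lists for replication licensing, DNA synthesis, recombination and mitosis, 73 were listed for HLM006474, 42 for Ro5-3335 and 37 for both, and each listed gene was lower. Across all genes tested, 4.22% were listed as lower for HLM006474 and 2.32% for Ro5-3335. These lists were chosen with earlier results of these data known, so the counts are no independent evidence of direction. The 37 shared genes had a median difference of -0.21, beside -0.09 for the 176 genes lower under both, which include the 37. The fall was larger under HLM006474 for 31 of the 37 and under Ro5-3335 for 6. The interval excluded 0 for 11 of the 37, and in each of the 11 the fall was larger under HLM006474. Allowing for the shared vehicle samples narrows the interval, which then excluded 0 for 16 of the 37.

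Of 22 genes that license or start replication origins, 12 were listed for both compounds. Cdc6, which loads the helicase onto origins, stood at -1.49 ± 0.13 under HLM006474 and -0.74 ± 0.12 under Ro5-3335 in the authors' deposited tables. Its difference of -0.75 (95% interval -1.10 to -0.40) was the largest in size on these lists. Cdt1, the partner of Cdc6 in loading, stood at -1.12 ± 0.11 and -0.77 ± 0.11, in the same order of compounds, in the authors' deposited tables. The replicative helicase is a ring of the 6 proteins MCM2 to MCM7. Its genes Mcm2, Mcm3, Mcm5 and Mcm6 were listed for both compounds, and their differences were -0.42, -0.54, -0.31 and -0.41, each with an interval that excluded 0. Mcm3 was the lowest of the 4 under HLM006474, at -1.14 ± 0.11, and the nearest to 0 of the 4 under Ro5-3335, at -0.61 ± 0.11, in the authors' deposited tables. The other ring genes, Mcm4 at -0.82 ± 0.061 and Mcm7 at -0.78 ± 0.061, were listed for HLM006474 alone in the authors' deposited tables. Gmnn, which codes for geminin, the inhibitor of CDT1, was listed for Ro5-3335 alone, at -0.65 ± 0.11 in the authors' deposited table. Genes that act with the helicase were also listed for both compounds. Cdc45 stood at -0.75 ± 0.12 and -0.64 ± 0.12, and Gins2 at -0.86 ± 0.11 and -0.62 ± 0.11, in the authors' deposited tables. The intervals of their differences, -0.44 to 0.22 and -0.55 to 0.08, included 0. The same held for Mcm10, Ticrr, the origin recognition gene Orc1 and the clamp loader gene Dscc1, whose intervals included 0 and which had the 4 highest standard errors of the 12.

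The promoters of several genes that fell under both compounds hold the letters that E2F proteins bind, and 6 are shown as examples. Cdca7, Dnmt1, Hells and Orc1 also fell under both and held a match upstream, but are not shown. The 60 bases shown for each of the 6 lie upstream of a RefSeq start site in build GRCm38.p6. They run 5′ to 3′ on the strand of the gene. Capitals mark matches to TTTCCCGC, TTTGGCGC, TTTCGCGC or TTTGCCGC on either strand, and matches may overlap. Each match began between 47 and 209 bases before the start site. The stretches lie at chr11:98907987-98908046 (Cdc6, plus strand), chr8:75109334-75109393 (Mcm5, plus), chr1:128359719-128359778 (Mcm6, minus), chr17:56304102-56304161 (Uhrf1, plus), chr10:69353010-69353069 (Cdk1, minus) and chr1:71103148-71103207 (Bard1, minus).
Cdc6: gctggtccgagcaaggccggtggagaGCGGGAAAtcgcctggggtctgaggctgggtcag
Mcm5: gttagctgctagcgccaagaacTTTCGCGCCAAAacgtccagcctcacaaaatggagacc
Mcm6: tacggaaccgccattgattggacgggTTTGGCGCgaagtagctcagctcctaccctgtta
Uhrf1: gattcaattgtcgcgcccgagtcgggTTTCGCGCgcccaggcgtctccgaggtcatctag
Cdk1: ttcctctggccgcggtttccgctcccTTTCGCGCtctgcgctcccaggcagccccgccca
Bard1: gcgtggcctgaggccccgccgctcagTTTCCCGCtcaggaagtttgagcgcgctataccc

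A promoter was in the RefSeq table for 157 of the 211 genes, with 198 promoters of 300 bases in all. A match to these E2F letters stood in 12 of 32 promoters (37.5%) of the shared replication and division genes and in 2.26% of all 32851 promoters in the table. The other genes lower under both compounds had it in 9 of 132 promoters (6.82%), and genes listed for 1 of the 2 compounds only in 25 of 772 (3.24%). Over all 198 promoters of the shared genes, 22 (11.1%) had a match to the E2F letters. The RUNX letters TGTGGT or TGCGGT, on either strand, stood in 40 of the 198 promoters (20.2%) and in 22.4% of all promoters. In the 32 promoters of replication and division genes they stood in 8 (25.0%). The letters CCAAT stood in 19 of those 32 (59.4%) and in 37.4% of all promoters. A match is a description of letters and not a measured binding site.

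Of genes that copy DNA, supply nucleotides and rebuild chromatin, 10 of 32 were listed for both compounds and 15 more for HLM006474 alone. The fall was larger under HLM006474 for 9 of the 10. The interval excluded 0 for 4 of the 10, namely Tk1, Uhrf1, Chaf1b and Hells. Tk1, thymidine kinase 1, stood at -1.34 ± 0.12 under HLM006474 and -0.97 ± 0.11 under Ro5-3335 in the authors' deposited tables. Uhrf1, which brings the maintenance DNA methyltransferase to new DNA, stood at -1.24 ± 0.081 and -0.87 ± 0.080 in the authors' deposited tables. Chaf1b, a subunit of the chromatin assembly factor that lays down histones behind the fork, had a difference of -0.57 (95% interval -0.89 to -0.25). Hells, a chromatin remodeller, had a difference of -0.51 ± 0.25. Rrm2, the small subunit of the enzyme that makes deoxynucleotides, did not follow this pattern. It stood at -0.94 ± 0.077 and -0.95 ± 0.077 in the authors' deposited tables, and the interval of its difference ran from -0.21 to 0.22. Dnmt1, the maintenance methyltransferase, had a difference of -0.07 (95% interval -0.25 to 0.12). For Dut, Tyms, Pole2 and Rfc5 the interval also included 0. For Rrm2 and Dnmt1 the interval leaves no room for a difference as large as that of Cdc6. Among the 15 genes listed for HLM006474 alone, the largest falls were Clspn at -1.02 ± 0.12, Lig1 at -0.96 ± 0.081 and Pole at -0.94 ± 0.19 in the authors' deposited table.

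Homologous recombination and the Fanconi anemia pathway mend broken and cross-linked DNA. Of 19 of their genes 6 were listed for both compounds, 3 with the larger fall under each, and no interval of their differences excluded 0. With the shared vehicle samples allowed for, it excluded 0 for Exo1 and Bard1, which both had the larger fall under HLM006474. Exo1, an exonuclease of repair, stood at -1.10 ± 0.19 under HLM006474 and -0.64 ± 0.19 under Ro5-3335 in the authors' deposited tables. Fancd2 and Polq had differences of 0.18 and 0.15, and Bard1, the partner of BRCA1, and Brip1, a helicase, had -0.26 each. A further 7 genes, led by Rad54b at -1.03 ± 0.29, were listed for HLM006474 alone in the authors' deposited table.

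Among 41 genes of mitosis, 9 were listed for both compounds. Mki67, the proliferation marker, stood at -1.11 ± 0.092 under HLM006474 and -0.69 ± 0.092 under Ro5-3335 in the authors' deposited tables, and among the 9 genes it alone had an interval that excluded 0. With the shared vehicle samples allowed for, the interval excluded 0 for 4 of the 9, Aurkb, Melk and Ccna2 being the others. Ccna2, cyclin A2, had a difference of -0.12 (95% interval -0.28 to 0.03), and Cdk1, the kinase that drives entry into mitosis, had -0.06 (-0.33 to 0.21). Plk1, another mitotic kinase, stood at -0.84 ± 0.12 and -0.77 ± 0.12 in the authors' deposited tables. Ube2c, which works with the ligase that ends mitosis, was the single gene of the 9 with the larger fall under Ro5-3335, at -0.59 ± 0.097 and -0.77 ± 0.098 in the authors' deposited tables. Aurkb, Melk, the transcription factor gene Foxm1 and the checkpoint gene Bub1b had differences between -0.24 and -0.04. Top2a, Anln and Kif23 were listed for Ro5-3335 alone, with Top2a at -0.60 ± 0.046 in the authors' deposited table, while 10 genes, led by Kif15 at -0.79 ± 0.20, were listed for HLM006474 alone in the authors' deposited table.

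Of 20 genes for E2F and RUNX proteins and their partners, E2f8 and Ccne2 were listed for both compounds. E2f8, a repressor of the E2F family, stood at -1.23 ± 0.13 under HLM006474 and -0.89 ± 0.13 under Ro5-3335 in the authors' deposited tables. Cyclin E2, Ccne2, stood at -0.77 ± 0.16 and -0.74 ± 0.16 in the authors' deposited tables. E2f2 at -1.001 ± 0.14, Runx3 at -0.98 ± 0.27 and E2f7 at -0.75 ± 0.24 were listed for HLM006474 alone in the authors' deposited table. Runx1 and Cbfb were in neither table.

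**Figure D2:**
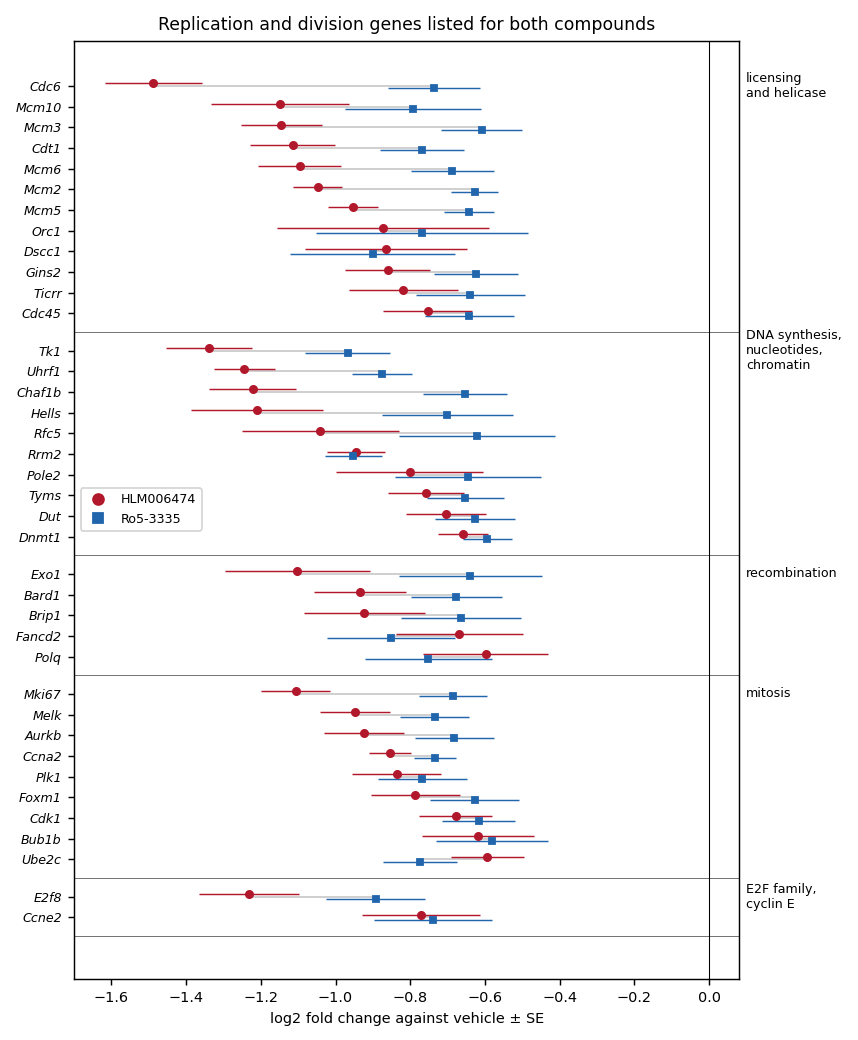
Log2 fold change against vehicle for 36 of the 37 replication and division genes and for E2f8 and Ccne2, under HLM006474 (red circles) and Ro5-3335 (blue squares), with bars of 1 standard error. In the licensing group 11 of 12 red points lie to the left of the blue ones, while Rrm2, Cdk1, Bub1b and Ccne2 nearly coincide.

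The 8 contractile genes listed for both compounds were lower under each, 6 of them with the larger fall under Ro5-3335 and 2 with the larger fall under HLM006474. Of 24 genes on the list 10 were listed as lower for HLM006474 and 13 for Ro5-3335, beside 4.22% and 2.32% of all genes tested. The median difference of the 8 was 0.10, beside -0.09 for the 176 genes lower under both, which include the 8. Acta2, smooth muscle actin and the most abundant of the 211 genes, stood at -1.09 ± 0.078 under HLM006474 and -1.19 ± 0.078 under Ro5-3335 in the authors' deposited tables. The interval of its difference ran from -0.11 to 0.32. Tagln, the actin-binding protein transgelin, stood at -0.88 ± 0.074 and -1.13 ± 0.075 in the authors' deposited tables, a difference of 0.25 (95% interval 0.04 to 0.45). Casq1, the calcium-binding protein calsequestrin 1, differed most, at -0.64 ± 0.14 and -1.25 ± 0.14 in the authors' deposited tables, a difference of 0.61 (95% interval 0.22 to 1.00). Cnn2, calponin 2, had a difference of 0.12 ± 0.063, whose interval only just excluded 0. For Tpm2, a tropomyosin, Myl9, a myosin light chain, and Smtn, smoothelin, the interval included 0. Actg2, enteric actin, had the larger fall under HLM006474, at -1.88 ± 0.20 and -1.37 ± 0.20 in the authors' deposited tables. The interval of its difference of -0.51 ran from -1.07 to 0.05, and from -0.93 to -0.09 with the shared vehicle samples allowed for. Actg2 and Acta2 are close in sequence, so reads may have been split between them. Nexn, a protein of actin filaments that is on no list, had a difference of 0.42 (95% interval 0.09 to 0.76) and is named after its values were seen. Jph2 at -1.22 ± 0.16, Flna at -0.76 ± 0.054, Cnn1 at -0.72 ± 0.058, Tpm4 and Lmod1 were listed for Ro5-3335 alone in the authors' deposited table. Listed for HLM006474 alone were Mylk and Myh11, which were lower, and Des and Ankrd1, which stood at 2.19 ± 0.74 and 2.46 ± 0.92 at mean counts of 21.0 and 13.3 in the authors' deposited table. Myh11, Des and Ankrd1 had mean counts below 21.6, the lowest count in the Ro5-3335 table, so they may not have entered that comparison.

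The CArG box, in the letters of its consensus, stood upstream of Cnn2 and Myl9 and, among the early genes described next, of Egr2. The stretches, in build GRCm38.p6 on the plus strand with the box in capitals, lie at chr10:79988519-79988578, chr2:156775278-156775337 and chr10:67537772-67537831 in that order.
Cnn2: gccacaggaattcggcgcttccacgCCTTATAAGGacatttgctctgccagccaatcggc
Myl9: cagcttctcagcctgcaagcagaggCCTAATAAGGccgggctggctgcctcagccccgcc
Egr2: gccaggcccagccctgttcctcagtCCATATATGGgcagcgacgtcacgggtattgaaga
The box stood in 2 of 6 promoters of the shared contractile genes and in 4 of 8 promoters of the shared early genes, all 4 of them Egr2 promoters that overlap in part. It stood in 1.63% of all promoters in the table.

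Of the immediate early genes 6 were listed as higher for both compounds, and the rise was larger under HLM006474 for each of them. Across all genes tested 1.42% were listed as higher for HLM006474 and 0.605% for Ro5-3335, and of 26 early genes 10 and 7 were. The median difference of the 6 shared genes was 0.80, and the interval excluded 0 for 5 of them. Fosb, a partner in the AP-1 factor, rose most, at 3.22 ± 0.26 under HLM006474 and 2.19 ± 0.27 under Ro5-3335 in the authors' deposited tables. Egr1 stood at 1.41 ± 0.095 and 0.62 ± 0.096, Egr2 at 2.01 ± 0.19 and 1.10 ± 0.19, and Egr3 at 1.68 ± 0.17 and 0.86 ± 0.18, in the authors' deposited tables. These 3 zinc finger factors had differences of 0.79 (95% interval 0.53 to 1.06), 0.92 (0.39 to 1.44) and 0.81 (0.33 to 1.296). The orphan nuclear receptor genes Nr4a1 and Nr4a3 did not move alike. Nr4a1 stood at 1.78 ± 0.20 and 1.20 ± 0.20, and Nr4a3 at 0.70 ± 0.095 and 0.69 ± 0.095, in the authors' deposited tables. The difference for Nr4a3 was 0.01 (95% interval -0.26 to 0.27). Their relative Nr4a2 was listed for Ro5-3335 alone, at 1.64 ± 0.54 in the authors' deposited table. Egr4 at 1.73 ± 0.62, Fosl1 at 1.37 ± 0.30, Atf3 at 1.03 ± 0.091 and Arc at 0.85 ± 0.20 were listed for HLM006474 alone in the authors' deposited table. The mean count of Egr4, 16.1, was below the lowest count in the Ro5-3335 table, so Egr4 may not have entered that comparison.

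On the matrix, TGF-beta and growth factor lists, 1 of 44, 2 of 21 and 1 of 27 genes were shared. Of the 44 matrix genes 5 were listed as lower for HLM006474 and 2 for Ro5-3335, beside 4.22% and 2.32% of all genes tested. Adamts14, a protease that trims procollagen, stood at -0.59 ± 0.16 under HLM006474 and -1.16 ± 0.16 under Ro5-3335 in the authors' deposited tables, a difference of 0.57 (95% interval 0.13 to 1.02). It was the 1 shared gene of 44 on the matrix list. Ltbp2, which binds matrix fibrils, stood at -0.87 ± 0.079 and -0.85 ± 0.079, and the TGF-beta-induced gene Lrrc15 at -0.98 ± 0.26 and -0.96 ± 0.27, in the authors' deposited tables. Inhba, the subunit of activin A, stood at -0.99 ± 0.26 and -0.94 ± 0.26 in the authors' deposited tables. The interval for Ltbp2 ran from -0.24 to 0.20, while those for Lrrc15 and Inhba were wide, with Inhba from -0.76 to 0.66. Tnc, tenascin C, was listed for Ro5-3335 alone at -0.79 ± 0.065, and Tgfbi for HLM006474 alone at -1.04 ± 0.072, in the authors' deposited tables.

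**Figure D3:**
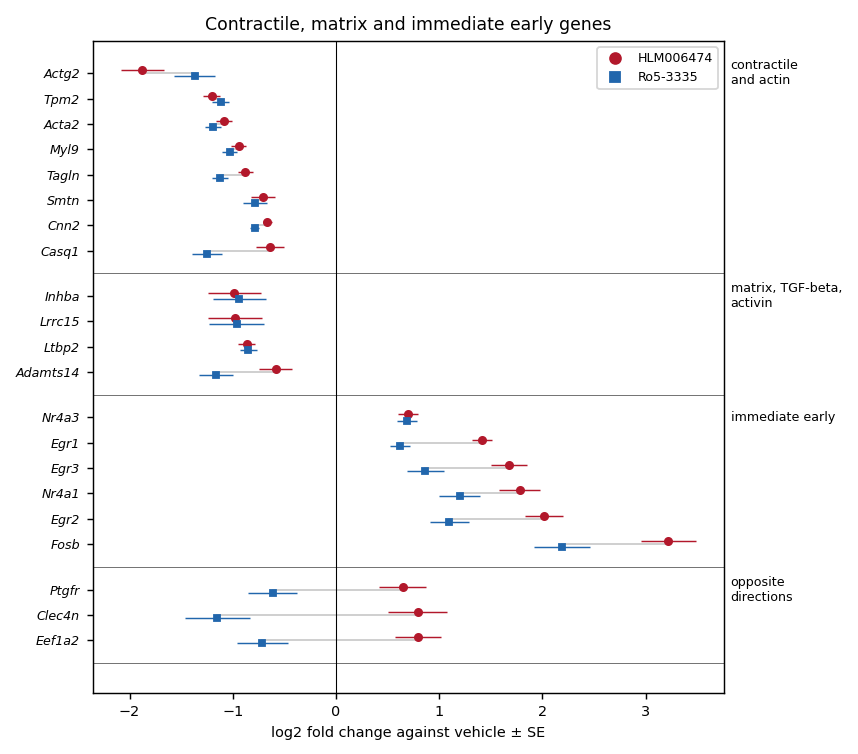
Log2 fold change against vehicle for shared contractile, matrix, TGF-beta, activin and immediate early genes and for the 3 genes in opposite directions, under HLM006474 (red circles) and Ro5-3335 (blue squares), with bars of 1 standard error. Casq1 and Adamts14 are lower under Ro5-3335, and 5 early genes are higher under HLM006474, with Nr4a3 equal.

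The 3 genes that went in opposite directions were higher under HLM006474 and lower under Ro5-3335. Clec4n, the C-type lectin receptor dectin-2 of myeloid cells, stood at 0.79 ± 0.29 and -1.15 ± 0.31 in the authors' deposited tables, a difference of 1.94 (95% interval 1.11 to 2.77). Eef1a2, a translation elongation factor of neurons and muscle, stood at 0.79 ± 0.22 and -0.71 ± 0.25 in the authors' deposited tables. Ptgfr, the receptor for prostaglandin F2 alpha, stood at 0.65 ± 0.23 and -0.61 ± 0.23 in the authors' deposited tables. Their DESeq2 adjusted p values ran from 0.00235, for Clec4n under Ro5-3335, to 0.0424, for Ptgfr under Ro5-3335, in the authors' deposited tables.

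Outside the groups above, the genes named for their large fall or their difference have varied roles. Ccl12, a chemokine for monocytes, stood at -2.21 ± 0.31 under HLM006474 and -0.97 ± 0.26 under Ro5-3335 in the authors' deposited tables. Its difference of -1.24 (95% interval -2.03 to -0.45) was the most negative of the 211. Slamf9, a surface receptor of the SLAM family, stood at -1.64 ± 0.17 and -0.91 ± 0.16 in the authors' deposited tables. Ch25h, the enzyme that makes 25-hydroxycholesterol, stood at -1.84 ± 0.21 and -1.21 ± 0.20 in the authors' deposited tables. Gpr84, a receptor for medium-chain fatty acids on myeloid cells, had a difference of -0.50 (95% interval -1.16 to 0.15). The part of cell number in these values was not tested. Sox3, a transcription factor of neural progenitors, had a difference of -0.82 (95% interval -1.30 to -0.35), and Crym, mu-crystallin, a binder of thyroid hormone found in Müller glia, had -0.61 (-0.96 to -0.26). The alarmin gene Il33 stood at -0.77 ± 0.089 and -0.75 ± 0.090, and Fabp7, a fatty acid binding protein of immature astrocytes, at -0.64 ± 0.055 and -0.67 ± 0.055, in the authors' deposited tables. For Fabp7 the interval of the difference, -0.13 to 0.18, was among the narrowest.

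Genes with few reads made up most of the largest changes under both compounds at once. By the smaller of the 2 fold changes, the first 12 included Fosb, Grin2b, Aox3, 2200002D01Rik, Pakap, Gm5831, Actg2, Gpr84, Rgs8, Wfdc1 and Oit3, and each of these 11 had a mean count below the median of 205. Grin2b, a subunit of the NMDA glutamate receptor, stood at -1.72 ± 0.57 under HLM006474 and -1.87 ± 0.58 under Ro5-3335 at a mean count of 43.3 in the authors' deposited tables. Aox3, an aldehyde oxidase, was higher, at 1.67 ± 0.41 and 1.62 ± 0.41, at a mean count of 32.3 in the authors' deposited tables. Rgs8, which quenches G protein signals, stood at -1.41 ± 0.17 and -1.29 ± 0.17 in the authors' deposited tables. In all, 23 genes were at least 2-fold lower and 10 at least 2-fold higher under both compounds. Of 23 genes on the stress list 4 were listed as higher for HLM006474, and 1 as higher and 1 as lower for Ro5-3335. Across all genes tested the shares were 1.42% for HLM006474, and 0.605% and 2.32% for Ro5-3335. The lower gene, Hspb1, was listed for Ro5-3335 alone, at -0.98 ± 0.13 in the authors' deposited table. Trib3, a pseudokinase of the integrated stress response, was the 1 shared gene of this list, at 1.15 ± 0.29 and 1.05 ± 0.29 in the authors' deposited tables. Arrdc3, an arrestin-domain protein, was the 1 gene higher under both whose rise was larger under Ro5-3335 beyond the interval, at 0.78 ± 0.081 and 1.33 ± 0.081 in the authors' deposited tables, a difference of -0.55 (95% interval -0.78 to -0.33). Crygs, gamma-S crystallin, which was named after its values were seen, had a difference of 0.26 ± 0.12.

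**Figure D4:**
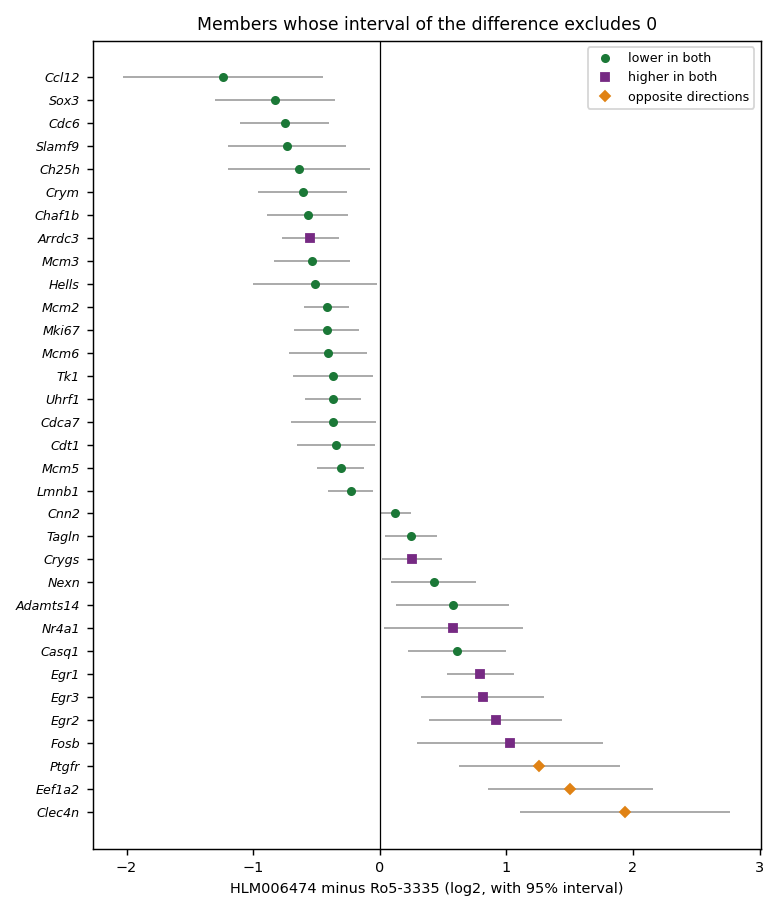
Difference between the log2 fold changes, HLM006474 minus Ro5-3335, with its 95% interval, for 33 of the 35 genes whose interval excluded 0. Genes lower under both are green circles, genes higher under both purple squares and genes in opposite directions orange diamonds. Negative values run from -1.24 for Ccl12, and positive values reach 1.94 for Clec4n.

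For 176 of the 211 genes the interval of the difference included 0, which does not show that the compounds acted alike. The median half-width of the interval was 0.47, so a modest difference was out of reach for many genes. For 72 of the 176 the interval lay within a 1.5-fold difference either way. The genes nearest to the fold limit were Adamts14, Lurap1l and Ube2c at about -0.59 under HLM006474 in the authors' deposited table. Under Ro5-3335 they were Bub1b and Chst1 at -0.58 and Gm4724 at 0.59 in the authors' deposited table. The genes nearest to the adjusted p limit were Cldn1, Car12 and Lime1 for HLM006474 and Sp5, Ptgfr and Ptprb for Ro5-3335. Genes just outside these limits were not analysed here.

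Some lists had genes in the HLM006474 table and no shared gene. Of all genes tested, 1.42% were listed as higher and 4.22% as lower for HLM006474, and 2.93% were listed for Ro5-3335. Of 27 genes of the oxidative stress factor NRF2 and of glutathione, 21 were listed as higher for HLM006474 and none was in the Ro5-3335 table. They were led by Hmox1, heme oxygenase 1, at 2.77 ± 0.15, Srxn1, sulfiredoxin, at 2.12 ± 0.10 and Slc40a1, the iron exporter ferroportin, at 2.02 ± 0.15 in the authors' deposited table. Among 12 markers of the oligodendrocyte lineage, 8 were listed as lower for HLM006474 and none was in the Ro5-3335 table, with Mobp at -1.80 ± 0.53, Mbp at -1.20 ± 0.35 and Cldn11 at -1.14 ± 0.22 in the authors' deposited table. Of 20 cholesterol synthesis genes 3 were listed as lower for HLM006474 alone, among them Fdps, at -0.79 ± 0.065 in the authors' deposited table. For lists of 12, 20 or 27 genes, none in the Ro5-3335 table is near the share of 2.93%. For the remaining lists, counts are given for HLM006474 and then Ro5-3335, beside 5.64% and 2.93% of all genes tested. Of 21 TGF-beta response genes 3 were listed as lower for HLM006474 and 2 for Ro5-3335, and of 27 growth factor genes 7 and 3 were listed, with Inhba shared. Of 26 genes for inflammatory mediators 7 and 3 were listed, with Ccl12 and Il33 shared, and of 25 neural adhesion, synapse and channel genes 6 and 3, all lower, with Grin2b and Cacna1c among the 3 shared. Of 17 p53 target genes 2 and 1 were listed, all higher and none shared. Among the cell type markers, Fabp7 was the 1 of 14 astrocyte genes in either table, and of 7 Müller glia genes Crym was shared and Rlbp1 was in the Ro5-3335 table alone. Of 10 neuron markers Tubb3 was in the Ro5-3335 table alone, and of 8 pericyte and fibroblast markers 2 were listed as lower for HLM006474 alone. These 2 were Rgs5 and Pdgfra, and Pdgfra is also among the 8 oligodendrocyte lineage genes counted above. None of 5 endothelial markers, nor of 7 markers of lens, pigment epithelium and Schwann cells, was in either table. For genes in 1 table the other compound's value is not given, so the difference was not tested. Of the 645 genes in the HLM006474 table alone, 75 had mean counts below the lowest in the Ro5-3335 table.

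**Figure D5:**
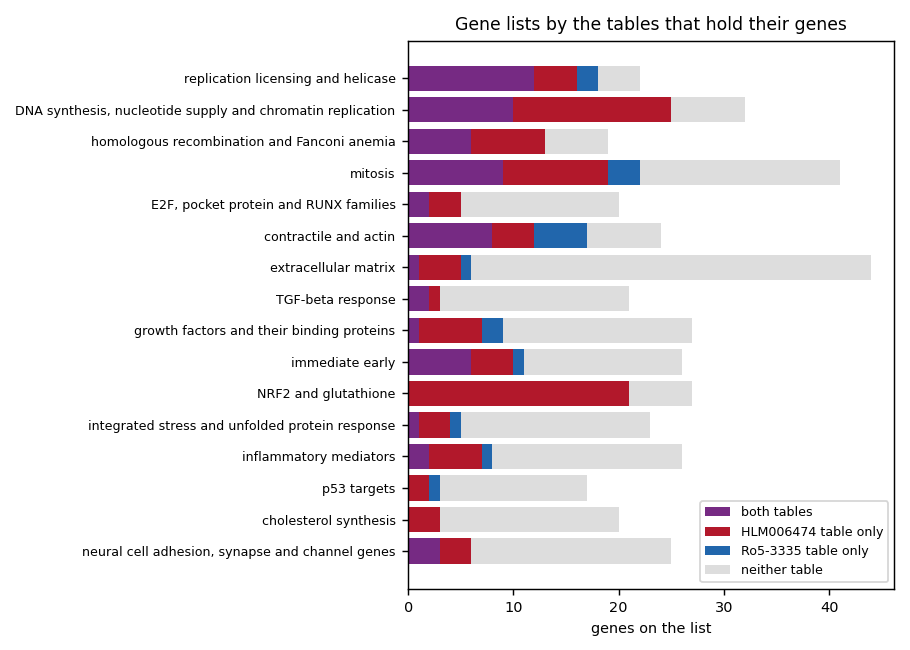
Number of genes on each of the 16 gene lists (horizontal) by whether they were in both tables, in the HLM006474 table alone, in the Ro5-3335 table alone or in neither. The licensing list has 12 genes in both tables. The NRF2 and glutathione list has 21 in the HLM006474 table and none in the other, where 2.93% of all genes tested were listed.

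SB431542 was compared with the same vehicle samples, and 57 of the 211 genes were in its table, 38 lower and 19 higher, where 4.93% of all tested genes were listed, 2.64% as lower and 2.29% as higher. None of the 37 replication and division genes was among them. Ccl12 stood at 1.495 ± 0.22 under SB431542 in the authors' deposited table, the 1 gene lower under both other compounds and higher under this one. Of the 6 shared immediate early genes 5 were also higher under SB431542, with Fosb at 1.62 ± 0.27, Nr4a1 at 1.40 ± 0.20, Egr3 at 1.27 ± 0.17, Egr2 at 0.97 ± 0.19 and Egr1 at 0.82 ± 0.096 in the authors' deposited table. Clec4n stood at 1.48 ± 0.28 and Acta2 at -0.64 ± 0.078 under SB431542 in the authors' deposited table.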

How the data were processed

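Primary mouse astrocyte cultures were measured by RNA sequencing of total RNA. The submitters' processing notes name CASAVA 1.8, STAR 2.7, DESeq2 1.30.1 and build GRCm38. For strandedness, read counter and annotation nothing is given in the sources used here. The authors deposited 1 table per compound, each holding only genes past their limits. Per the file headers these give a mean normalised count, a signal averaged over libraries, the log2 fold change, its error on that scale, and a Wald score. They also give the p-value and adjusted p-value, per the file headers. Whether replicates are biological is not stated, so p-values cover only how these samples vary, and that variation may be technical.

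The tables were matched on the gene's row number with Python 3.11.15 and pandas 2.3.3. Mean counts agreed in each match, so the fold changes come from fits that share normalisation. The number of genes tested was recovered as the number that makes p divided by adjusted p give whole ranks. It made 81.1% of ranks whole within 0.02 for HLM006474 and 83.6% for Ro5-3335. The lowest mean count was 5.09 for HLM006474 and 21.6 for Ro5-3335, so genes with few reads may have been left out of the latter adjustment. The difference and its interval were tested on simulated data. How choosing genes by the limits of both tables affects the interval was not tested. No new test per gene was made. The members and the 16 gene lists and 8 marker lists were chosen with earlier results of these data known. Genes were named if on a list, if among the 12 with the largest smaller fold change, if among the 10 most positive or 10 most negative differences whose interval excluded 0, if in opposite directions, or if nearest a limit. From a list's genes in 1 table, at most the 3 largest changes are named, and others only where a count or a complex needed them. The values of 3 genes that the rule names are not reported here, and the counts include them.

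In GENCODE vM21, exons of 57 of 210 members found there overlap exons of another gene, 49 on the opposite strand, among them Tk1, Cdc45, Rfc5, Ccna2 and Tagln. Without the strand, reads of such pairs cannot be told apart. Pakap shares exons with Palm2 and Akap2. The symbol Nadk2 names 2 rows of the HLM006474 table.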

Additional observations from a re-analysis of the deposited data

How the results depend on the processing

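Requiring an absolute log2 fold change of at least 1 in both tables left 33 shared genes, of which 5 had an interval that excluded 0 and 23 the larger change under HLM006474. Allowing for the shared vehicle samples, under equal spread in the groups, raised the number of intervals that excluded 0 from 35 to 56, and a 99% interval lowered it to 22. An adjusted p under 0.01, a mean count of at least 100 and matching on the symbol gave 173, 157 and 212 shared genes. The median difference of genes lower under both compounds was -0.09 and stayed between -0.11 and -0.09 under the alternatives run. Of 89 named genes, 9 had an interval that excluded 0 only when the shared vehicle samples were allowed for (Actg2, Aurkb, Bard1, Ccna2, E2f8, Exo1, Gm4724, Gpr84 and Melk), and 9 lost it at 99%. No paired analysis was possible because the tables hold no value per sample, and for the same reason leaving out a replicate was not run. Library depth is unknown.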

Other observations

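Several related pairs of genes were shared by both compounds, and they were named after their values were seen. Arrdc2 stood at 0.73 ± 0.25 under HLM006474 and 0.80 ± 0.25 under Ro5-3335 in the authors' deposited tables, beside its relative Arrdc3 above. Ypel1 stood at 1.00 ± 0.26 and 0.87 ± 0.26, and Ypel4 at 0.70 ± 0.27 and 0.99 ± 0.26, in the authors' deposited tables. Cd300a and Cd300ld3, receptors of myeloid cells in the Cd300 cluster of chromosome 11, stood at 0.87 ± 0.14 and 0.65 ± 0.17 under HLM006474 and at 0.68 ± 0.14 and 0.69 ± 0.17 under Ro5-3335, in the authors' deposited tables. The prostaglandin and organic anion transporter genes Slco2a1 and Slco2b1 were lower, at -1.37 ± 0.26 and -1.08 ± 0.16 under HLM006474 and at -1.11 ± 0.25 and -0.94 ± 0.16 under Ro5-3335, in the authors' deposited tables. Reads of close relatives may have been split between them.

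Neighbouring genes were also found among the 211. Arhgef39 and Tpm2 lie 4979 bases apart on chromosome 4 in RefSeq build GRCm38.p6, with no protein-coding gene between them, and both were lower under both compounds. Kcnmb1 lies within the span of Kcnip1 on chromosome 11, and both were lower under both compounds.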
